A study of Saccharomyces cerevisiae with 18 samples.

Results

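The transcripts described here are RNA molecules that lay wholly between protein-coding genes in budding yeast. A molecule was a member when its 5' and 3' ends carried at least 1 read in a capped library, it overlapped no coding sequence on either strand, and it overlapped no annotated snoRNA, snRNA, tRNA or rRNA. Coding sequence means the stretch from start to stop codon, introns included, of the 6008 protein-coding genes in the R64 reference. Of 1881560 pairs of ends with a capped read, 43080 met the rule. On each strand, 5' ends at most 50 nt from their neighbour were joined, which gave 6708 clusters, against 57930 clusters when every capped molecule was grouped in the same way. Of the 6708, 2539 rested on a single read and 713 held at least 20 reads. The 713 held 103183 of the 123812 reads between genes and are the clusters described singly.

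The molecules were measured by TIF-Seq, which reads both ends of the same cDNA and so places each RNA as a pair of genome positions. All cells were wild-type diploid SLS045 yeast of the S288c background, in mid-log phase at an optical density of 1, in medium with 1% galactose (YPGal) or 1% glucose (YPAD), each with 1% yeast extract and 2% peptone. The 18 libraries comprised 6 standard galactose libraries from 4 cultures, 6 standard glucose libraries from 2 cultures, 2 libraries per medium made to favour long molecules, and 1 library per medium of non-capped molecules. In the deposited table all libraries of a kind share 1 column, so a molecule has 1 count per kind, no spread between replicates and no p-value.

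A gap between genes in yeast is short and often holds a promoter. Promoters commonly start RNA in both directions, and the RNA that runs away from the gene is usually short, ended early by the Nrd1-Nab3-Sen1 complex and destroyed by the nuclear exosome. Some upstream RNAs cross a promoter and repress it, as SRG1 does at SER3, and some genes (NRD1, HRP1, IMD2) make short RNAs from their own control region that stop before the coding sequence.

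The stretches of genome at the starts of 7 clusters are printed because the comparison of media turns on them. Sequences are of build R64, written 5' to 3' on the strand of the cluster. Capitals mark the base at the most used 5' end, any TATAAA on either strand, and any Gal4 site, the sequence CGGNNNNNNNNNNNCCG, which reads the same on both strands. The windows are chrII:799801-799941, bottom strand (upstream of PHO89), chrIV:894416-894556, top strand (ADR1), chrVII:547717-547857, top strand (GSC2), chrXIII:432031-432171, top strand (ADH3), chrXI:231836-231976, top strand (HAP4), chrXII:289597-289887, bottom strand (behind GAL2) and chrIV:462998-463288, bottom strand (behind GAL3).
upstream of PHO89: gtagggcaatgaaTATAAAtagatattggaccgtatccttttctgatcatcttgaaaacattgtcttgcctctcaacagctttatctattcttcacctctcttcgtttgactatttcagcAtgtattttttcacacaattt
upstream of ADR1: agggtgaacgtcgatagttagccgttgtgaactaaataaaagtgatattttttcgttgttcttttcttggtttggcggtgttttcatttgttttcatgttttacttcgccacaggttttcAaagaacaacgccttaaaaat
upstream of GSC2: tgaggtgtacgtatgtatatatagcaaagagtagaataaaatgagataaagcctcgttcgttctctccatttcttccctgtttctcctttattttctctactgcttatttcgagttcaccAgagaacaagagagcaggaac
upstream of ADH3: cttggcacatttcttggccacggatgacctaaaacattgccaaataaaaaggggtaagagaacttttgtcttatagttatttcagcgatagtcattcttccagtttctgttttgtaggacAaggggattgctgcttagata
upstream of HAP4: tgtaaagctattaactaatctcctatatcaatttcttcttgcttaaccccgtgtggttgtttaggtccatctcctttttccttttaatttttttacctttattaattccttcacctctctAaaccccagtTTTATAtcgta
behind GAL2: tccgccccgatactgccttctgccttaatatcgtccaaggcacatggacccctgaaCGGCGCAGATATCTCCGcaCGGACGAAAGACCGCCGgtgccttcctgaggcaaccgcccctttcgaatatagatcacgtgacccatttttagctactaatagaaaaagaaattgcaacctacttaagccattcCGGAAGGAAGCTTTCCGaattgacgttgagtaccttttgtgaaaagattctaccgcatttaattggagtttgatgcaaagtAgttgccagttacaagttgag
behind GAL3: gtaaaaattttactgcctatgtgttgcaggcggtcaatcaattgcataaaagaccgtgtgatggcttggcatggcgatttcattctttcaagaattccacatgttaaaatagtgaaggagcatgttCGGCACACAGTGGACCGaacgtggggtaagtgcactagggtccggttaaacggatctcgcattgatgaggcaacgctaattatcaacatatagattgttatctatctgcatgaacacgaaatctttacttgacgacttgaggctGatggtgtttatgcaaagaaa
The start behind GAL2 lay downstream of 3 Gal4 sites that do not overlap each other, and the start behind GAL3 lay downstream of 1. Of the 10 clusters called higher in galactose below, the one behind GAL2 was the only one with a Gal4 site in the 300 nt before its start. TATAAA stood before the start upstream of PHO89, and its reverse complement just after the start upstream of HAP4.

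Over all 713 clusters, 25 (3.51%) had a Gal4 site in the 300 nt before their most used 5' end, against 106 of 5267 coding genes (2.01%) in the same stretch before theirs. TATAAA on either strand lay within 150 nt before the start of 159 clusters (22.3%), against 1534 genes (29.1%). The start base was A in 505 clusters (70.8%) and the base before it a pyrimidine in 653 (91.6%); for genes these were 81.9% and 97.1%. A match is a description of these letters and not a site that was seen to be bound.

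Whole columns held 6425269 reads in galactose and 6290819 in glucose by the standard protocol, 3559614 in galactose and 2745847 in glucose by the long-enriched protocol, and 1100551 in galactose and 1317650 in glucose for non-capped molecules. Between-gene molecules made up 0.77% of standard galactose reads (exact 95% interval 0.764 to 0.777) and 0.574% of standard glucose reads (0.568 to 0.58). In the long-enriched columns they were 0.589% in galactose (0.581 to 0.597) and 0.627% in glucose (0.618 to 0.636). 1 RNA, SCR1, supplied 17.0% of these standard reads in galactose and 23.1% in glucose, and of the long-enriched ones 52.6% in galactose and 55.8% in glucose. Without SCR1 the standard shares were 0.639% in galactose and 0.442% in glucose, and the long-enriched ones 0.279% in galactose and 0.277% in glucose. A share depends on what else fills the library. After scaling to coding genes by the trimmed mean of M values (TMM), the standard sum without SCR1 was 1.06-fold in galactose over glucose (1.05 to 1.08) and the long-enriched sum 0.91-fold (0.883 to 0.938). All intervals here are 95% intervals for counting error only, and reads may include PCR copies.

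SCR1, the RNA of the signal recognition particle made by RNA polymerase III, was the most abundant member (chromosome V, 441987 to 442366, top strand). It counts as a member because the rule leaves out snoRNA, snRNA, tRNA and rRNA but not this class. SCR1 had 8439 standard reads in galactose and 8338 in glucose, 11019 long-enriched reads in galactose and 9610 in glucose, and 0 non-capped reads in either medium. Its most used 5' end was the annotated first base, and its most used 3' end lay 142 nt before the annotated end. The reference around that 3' end is chrV:442326-442406, top strand, with the last base of the molecules in capitals, and 5 of the 20 bases after it are A.
SCR1 3′ end: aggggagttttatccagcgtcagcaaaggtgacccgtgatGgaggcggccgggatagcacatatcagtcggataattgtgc

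TLC1, the RNA template of telomerase, was next among annotated RNAs, with a cluster from 307556 to 308847 on the top strand of chromosome II. It had 449 standard reads in galactose and 617 in glucose, and 285 long-enriched reads in galactose and 246 in glucose. Its start was 31 nt before the annotated one and its end 40 nt before the annotated end. This cluster was 1.91-fold lower in galactose by the standard protocol (1.69 to 2.16) and 1.24-fold lower by the long-enriched one (1.04 to 1.48). Both values are under the 2-fold rule. A second TLC1 cluster with the same most used 3' end had 58 standard reads in galactose and 45 in glucose. Its standard ratio was 0.928 (0.618 to 1.40). Most other annotated RNAs of the reference gave few reads or none between genes. Of 32 annotated non-coding, antisense and related RNAs, 9 overlapped a cluster with at least 20 reads on their own strand. RPR1, of RNase P, had 2 standard reads in galactose and 10 in glucose, and NME1, of RNase MRP, 0 in galactose and 8 in glucose. ICR1, which acts at FLO11, had 5 standard reads in galactose and 4 in glucose in clusters under 20 reads. PWR1, HRA1, RNA170, ZOD1, RUF21 and RUF22 were among 14 annotated RNAs with 0 capped reads in members. The rule leaves out molecules that overlap a coding sequence on either strand, so a 0 here does not show that an RNA was absent. SUT418, an annotated RNA between YPR014C and YPR015C, had 36 standard reads in galactose and 1 in glucose, 25.9-fold (4.36 to 1052), and too few long-enriched reads to be called. Of the RUF20 clusters, 1 had 42 standard reads in galactose and 40 in glucose and the other 58 in galactose and 47 in glucose.

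The 713 clusters fell into 4 positions, read along the strand of the cluster. In 272 the gene behind pointed away and the gene ahead the same way, so the cluster lay between divergent genes. In 220 both genes pointed against the cluster, called divergent here. In 146 both pointed with it, called upstream tandem. In 75 the gene behind pointed with it and the gene ahead against it, called downstream. Their shares were 38.1%, 30.9%, 20.5% and 10.5%, while the same kinds of gap made up 33.1%, 25.4%, 25.4% and 16.2% of the length between coding sequences, counting each gap once per strand. Per kb of gap there were 0.134 divergent clusters, 0.127 between divergent genes, 0.0889 upstream tandem and 0.0718 downstream ones. Of 5874 gaps, 556 (9.47%) held a described cluster, and in 62 of them clusters ran on both strands.

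**Figure D1:**
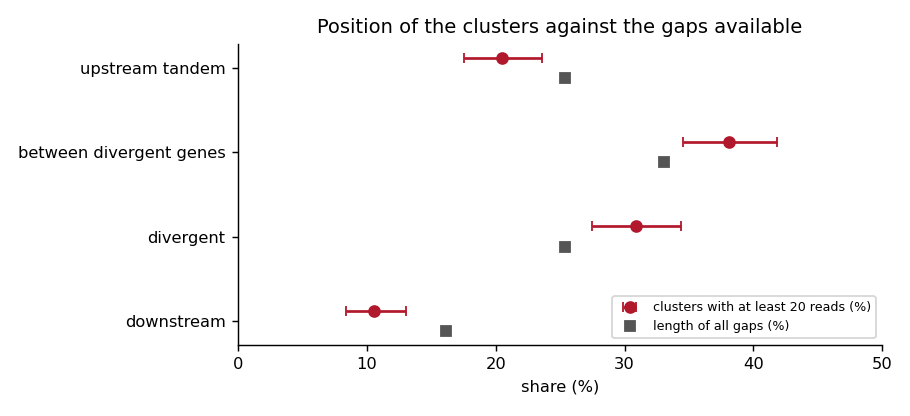
Share of the 713 clusters with at least 20 reads in each position (circles, exact 95% binomial intervals) and share of the total gap length of that kind (squares), in percent. Clusters between divergent genes and divergent clusters lie above their share of gap length (38.1% against 33.1%, and 30.9% against 25.4%), and upstream tandem and downstream clusters below it (20.5% against 25.4%, and 10.5% against 16.2%).

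The molecules were short, and the rule itself limits their span, since a member must fit in a gap between coding sequences. Their ends were spread over several positions. The median span of a cluster was 394 nt (quartiles 290 and 554), from 144 to 2285 nt over all 713. By position the medians were 417 nt between divergent genes, 416 nt for divergent, 364.5 nt for upstream tandem and 317 nt for downstream clusters. The most used 5' end held 27.8% of a cluster's reads at the median, and the most used 3' end 32.6%, with a median of 14 distinct 5' and 13 distinct 3' positions. Clusters of long molecules showed up mainly in the long-enriched columns. Among the 193 clusters up to 300 nt, 15.1% of reads came from those columns, and among the 49 clusters above 1000 nt, 58.0%, where the whole capped table had 33.1%. The longest of the named clusters, 2191 nt at the median, ran toward FLO10, a flocculin gene, with 23 standard reads in galactose and 16 in glucose, and 33 long-enriched reads in galactose and 38 in glucose.

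Clusters that began behind a gene of the opposite strand lay, by the member rule, in the gap next to that gene. The gap limits how far from the gene's own start they could begin, and no background of gap lengths is set beside the distances. The distance between the most used 5' ends of cluster and gene had a median of 250 nt (quartiles 177 and 548) over 210 divergent clusters, and of 309.5 nt (190 and 719) over 244 clusters between divergent genes. The fullest bin of 50 nt was 150 to 199 nt for divergent clusters, with 38 of them, and 200 to 249 nt for clusters between divergent genes, with 29.

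**Figure D2:**
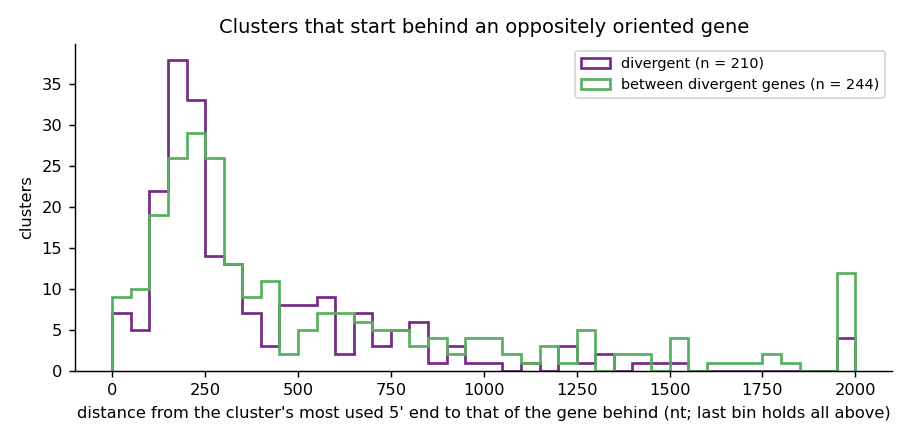
Number of clusters by distance (nt, bins of 50 nt) from their most used 5' end to the most used 5' end of the oppositely oriented gene behind them, for divergent clusters and clusters between divergent genes. The medians are 250 nt and 309.5 nt, and the last bin holds every larger distance.

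The study's design asks which molecules differ between galactose and glucose. A cluster was called when it had at least 20 reads in each protocol and was at least 2-fold different in both, in the same direction, with both intervals excluding 1. Both protocols drew on the same cultures in part, so a call in both is a technical repeat and not a biological one. Of 147 clusters with enough reads, 10 were higher in galactose (6.8%) and 8 were lower (5.44%), and 129 were neither. Among 5370 clusters of 5' ends from all capped molecules, 5.29% were higher and 3.33% lower by the same rule, and of 3524 protein-coding genes 6.44% were higher and 2.58% lower. Among the 582 clusters with 20 standard reads the median log2 ratio was 0.05, against 0.02 over 3723 genes. Scaling by total reads in place of TMM raises every standard log2 ratio by 0.44 and every long-enriched one by 0.15, and gives 14 higher and 1 lower in place of 10 higher and 8 lower.

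**Figure D3:**
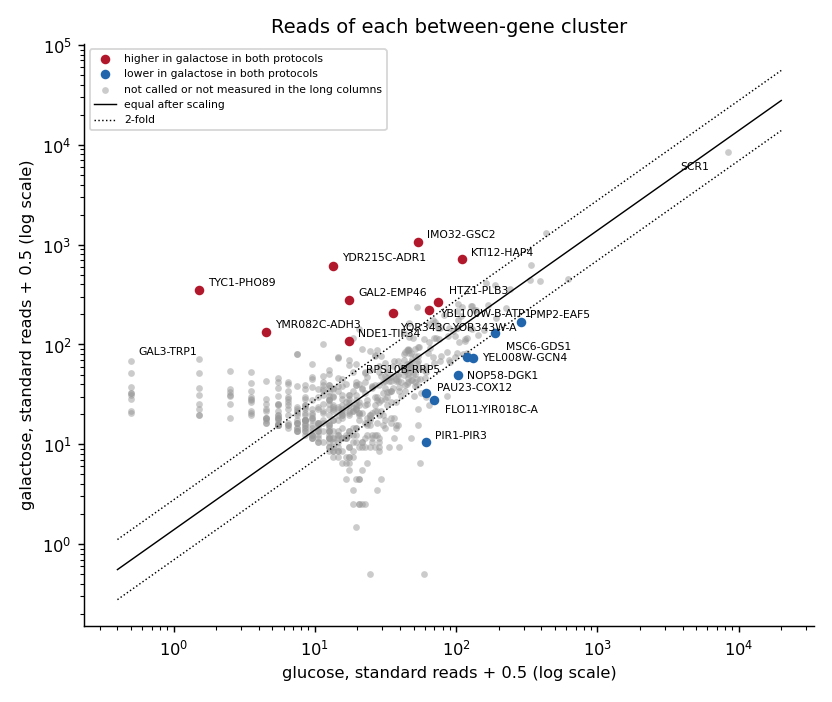
Standard reads of each cluster in galactose (y) against glucose (x), both plus 0.5 on log axes, for the 582 clusters with at least 20 standard reads; lines mark equality after TMM scaling and 2-fold differences. The 10 clusters higher in galactose in both protocols (red) include molecules with 352 reads in galactose and 1 in glucose upstream of PHO89, and the 8 lower ones (blue) are 2.04-fold to 8.47-fold lower.

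Among the called clusters the highest ratio belonged to one that ran toward PHO89, which encodes a sodium and phosphate cotransporter (chromosome II, 799333 to 799821, bottom strand). It had 352 standard reads in galactose and 1 in glucose, and 64 long-enriched reads in galactose and 2 in glucose. Galactose was high in both protocols and glucose near 0. The standard ratio was 253 (45.2 to 10036) and the long-enriched ratio 22.3 (5.92 to 188). The molecules ended 811 nt before the PHO89 start codon, and no molecule from their start range covered a coding sequence. The PHO89 gene had 575 standard reads in galactose and 0 in glucose and 6516 long-enriched reads in galactose and 51 in glucose.

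Between YDR215C and ADR1, the activator of genes for alcohol and fatty acid use, lay a cluster of 607 standard reads in galactose and 13 in glucose, with 113 long-enriched reads in galactose and 6 in glucose (chromosome IV, 894536 to 894993, top strand). The galactose columns were the higher ones in both protocols, 33.6-fold (19.5 to 63.5) and 13.1-fold (5.84 to 36.5). These molecules ended 42 nt before the ADR1 start codon. Only 1 capped read in the table covered ADR1, whose coding sequence is 3972 nt long, and it began at the same base, 894536. The longest molecule listed in the table spans 5000 nt, and how far length kept ADR1 molecules out was not tested.

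Upstream of GSC2, a subunit of glucan synthase, a cluster had 1069 standard reads in galactose and 53 in glucose, and 117 long-enriched reads in galactose and 18 in glucose (chromosome VII, 547837 to 548210, top strand). It was higher in galactose by 14.5-fold (11.02 to 19.5) and 4.52-fold (2.74 to 7.90), and the intervals of the protocols do not overlap. It ended 54 nt before the start codon of GSC2. The GSC2 coding sequence of 5688 nt is longer than any molecule listed, so a molecule covering it could not appear.

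In the gap before ADH3, the mitochondrial alcohol dehydrogenase, the higher cluster had 134 standard reads in galactose and 4 in glucose, and 53 long-enriched reads in galactose and 2 in glucose (chromosome XIII, 432151 to 433062, top strand). The ratios were 24.1 (9.20 to 89.8) and 18.4 (4.86 to 156). A neighbouring cluster with the same most used 3' end had 32 standard reads in galactose and 0 in glucose, and the interval of its ratio began at 5.89. Both ended 1726 nt before the ADH3 start codon. ADH3 itself had 1888 standard reads in galactose and 2134 in glucose, a ratio of 0.637 (0.598 to 0.678), below 1 where the cluster's was above it. Another cluster in that gap, which ended 10 nt before the start codon, had 8 standard reads in galactose and 13 in glucose.

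HAP4 encodes the activating subunit of the CCAAT-binding complex that drives respiratory genes. The cluster that ended 24 nt before its start codon had 712 standard reads in galactose and 109 in glucose, and 59 long-enriched reads in galactose and 13 in glucose (chromosome XI, 231956 to 232203, top strand). Galactose exceeded glucose 4.70-fold (3.84 to 5.81) by the standard protocol and 3.16-fold (1.71 to 6.28) by the other. HAP4 molecules that covered the gene started most often at the same base, 231956, and had 470 long-enriched reads in galactose and 55 in glucose, 5.95-fold higher in galactose (4.49 to 8.01).

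Of the other 5 higher clusters, the one behind GAL2 is given with the galactose genes. Behind NDE1, an external NADH dehydrogenase of mitochondria, a divergent cluster had 109 standard reads in galactose and 17 in glucose (4.62-fold, 2.75 to 8.21), beside 723 in galactose and 109 in glucose for the gene (4.77-fold). Between YOR343C and YOR343W-A there were 207 standard reads in galactose and 35 in glucose (4.26-fold, 2.96 to 6.28). Between HTZ1, the histone variant H2A.Z, and PLB3, a phospholipase, there were 268 standard reads in galactose and 74 in glucose (2.61-fold, 2.01 to 3.42). The cluster before ATP1, the alpha subunit of ATP synthase, had 221 standard reads in galactose and 64 in glucose (2.49-fold, 1.87 to 3.34), while ATP1 was 3.50-fold higher in the standard columns.

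**Figure D4:**
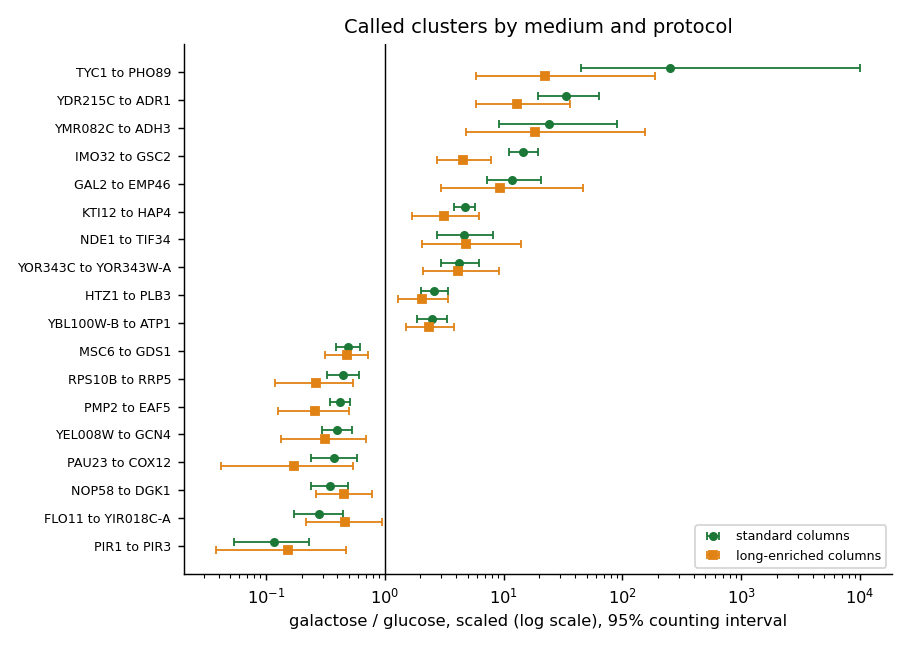
Galactose over glucose ratio of the 18 called clusters on a log axis, after TMM scaling, in the standard columns (circles) and the long-enriched columns (squares), with exact 95% counting intervals; rows name the gene behind and the gene ahead. The cluster before PHO89 is highest (253 and 22.3), and the cluster between PIR1 and PIR3 lowest (0.118 and 0.155).

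Of the 8 lower clusters, the one between PIR1 and PIR3, genes of cell wall proteins, had the lowest ratio (chromosome XI, 143589 to 144379, top strand). It had 10 standard reads in galactose and 61 in glucose, and 4 long-enriched reads in galactose and 18 in glucose, and was 8.47-fold (4.31 to 18.6) and 6.47-fold (2.13 to 26.3) lower in galactose. It was the only lower call that held under total-read scaling. Its molecules spanned 315 nt at the median, less than the 791 nt between its most used ends. From its start range, 10 of 125 standard molecules in galactose (8%, 3.90 to 14.2) lay between genes. In glucose 61 of 136 did (44.9%, 36.3 to 53.6). The cluster past the end of FLO11, a flocculin gene, toward YIR018C-A had 27 standard reads in galactose and 69 in glucose (3.55-fold lower, 2.25 to 5.76). The divergent cluster behind NOP58, a core protein of box C/D particles, had 49 standard reads in galactose and 102 in glucose (2.89-fold lower, 2.04 to 4.15), and the one between PAU23, a seripauperin gene, and COX12 had 32 standard reads in galactose and 61 in glucose (2.65-fold lower, 1.70 to 4.20). PAU23, the gene behind this cluster, had a standard log2 ratio of -1.19, lower in galactose like the cluster's -1.39. COX12, the gene ahead, a subunit of cytochrome oxidase on the opposite strand, had 6308 standard reads in galactose and 823 in glucose, 5.52-fold higher in galactose (5.13 to 5.94).

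The other lower clusters differed by 2.04-fold to 2.51-fold in the standard columns. The molecules before GCN4, the activator of amino acid synthesis, had 73 standard reads in galactose and 132 in glucose (2.51-fold lower, 1.87 to 3.39). Those behind PMP2, a small membrane protein that regulates the proton pump, had 169 standard reads in galactose and 287 in glucose (2.36-fold lower, 1.94 to 2.87). Between RPS10B, a ribosomal protein gene, and RRP5, a factor in rRNA processing, there were 74 standard reads in galactose and 119 in glucose (2.23-fold lower, 1.66 to 3.03). Between MSC6 and GDS1 there were 129 standard reads in galactose and 189 in glucose (2.04-fold lower, 1.62 to 2.57).

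Around the galactose genes, 10 clusters flanked GAL1, GAL10, GAL2, GAL3 or MTH1, and 1 had enough reads in both protocols to be called. That was the divergent cluster behind GAL2, the galactose permease, which ran from 289617 to 289371 on the bottom strand of chromosome XII, toward EMP46. It had 278 standard reads in galactose and 17 in glucose, and 40 long-enriched reads in galactose and 3 in glucose, 11.8-fold (7.22 to 20.5) and 9.28-fold (2.95 to 46.9) higher. It began 543 nt from the most used start of GAL2, and the 3 Gal4 sites printed above lay between these starts. GAL2 itself had 14251 standard reads in galactose and 1 in glucose. A second divergent start, 244 nt from that of GAL2, had 19 standard reads in galactose and 0 in glucose and the same most used 3' end. EMP46, which the cluster faces on the opposite strand, had 0 standard reads in galactose and 2 in glucose.

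Behind GAL3, the galactose sensor of the pathway, a cluster ran toward TRP1 on the bottom strand of chromosome IV (462636 to 463018). It had 68 standard reads in galactose and 0 in glucose, and 19 long-enriched reads in galactose and 0 in glucose. The exact 95% interval of the standard ratio began at 12.9. It began 345 nt from the most used start of GAL3, which had 1177 standard reads in galactose and 2 in glucose. Past the GAL2 coding sequence a downstream cluster had 51 standard reads in galactose and 0 in glucose and 113 non-capped reads in galactose and 0 in glucose. Past GAL1 a cluster that overlaps the end of the annotated RNA YNCB0008W had 36 standard reads in galactose and 5 in glucose and 86 non-capped reads in galactose and 0 in glucose, and its most used 3' end was that of GAL1.

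The gap shared by GAL10 and GAL1 held a pair of clusters that mirrored each other. The top-strand molecules ran from 278388 to 278962 and the bottom-strand ones from 278962 to 278378, so their ends differed by 0 and 10 nt. The top-strand cluster had 0 standard reads in both media, and 44 long-enriched reads in galactose and 0 in glucose. The bottom-strand one had 7 standard reads in galactose and 0 in glucose, and 20 long-enriched reads in galactose and 0 in glucose. Each cluster ended 1 nt from the most used 5' end of the gene it ran toward, and they began 11 nt (top strand) and 1 nt (bottom strand) from that of the gene behind. Whether the strand of these reads was assigned correctly was not tested. Of all 713 clusters this was the only pair on opposite strands with both ends within 20 nt of each other. The clusters flanking MTH1, a repressor of hexose transporter genes, were low: the highest had 17 standard reads in galactose and 11 in glucose.

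Of 7 hexose transporter genes, 6 flanked a cluster. For this and the other gene lists, the share of all genes that flank a cluster is not given here. Of the 6 hexose transporter clusters, 1 had enough reads in both protocols, and it was not called. That cluster lay behind HXT3, a low-affinity glucose transporter, and ran toward SVF1 (chromosome IV, 1166700 to 1167028, top strand). It had 239 standard reads in galactose and 52 in glucose (3.31-fold, 2.44 to 4.56), and 30 long-enriched reads in galactose and 10 in glucose (2.09-fold, 0.993 to 4.79). HXT3, on the other strand and 2008 nt from start to start, went the opposite way, with 1 standard read in galactose and 1405 in glucose. A cluster that ran toward the 3' end of HXT3 from YDR344C had 79 standard reads in galactose and 7 in glucose (8.12-fold, 3.76 to 20.9). Between YDR341C and HXT7 there were 10 standard reads in galactose and 25 in glucose (3.47-fold lower, 1.61 to 8.10), and between HXT2 and ANY1 18 in galactose and 24 in glucose (1.85-fold lower, 0.964 to 3.62). The cluster between HXT7 and HXT6 had 31 standard reads in galactose and 0 in glucose, and that between HXT1 and HXT5 had 0 in galactose and 13 in glucose. HXT6 and HXT7 are near-identical copies, so reads at their ends are uncertain.

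Of 7 genes with a known regulatory upstream RNA, 6 flanked a cluster. Of their 12 clusters 4 had enough reads in both protocols, with 1 called higher, upstream of ADH3, and 1 lower, which lies past the 3' end of FLO11 and not upstream of it. SRG1 crosses the promoter of SER3, which encodes an enzyme of serine synthesis. Its cluster (chromosome V, 322213 to 322612, top strand) had 83 standard reads in galactose and 43 in glucose and 11 long-enriched reads in galactose and 16 in glucose, with ratios of 1.39 (0.95 to 2.06) and 0.478 (0.201 to 1.10). The ratios lie on opposite sides of 1 and both intervals include 1. It began 1 nt from the annotated SRG1 start and ended 150 nt before the annotated SRG1 end, 74 nt before the SER3 start codon. From the same start range, 83 of 141 standard molecules in galactose (58.9%, 50.3 to 67.1) and 43 of 141 in glucose (30.5%, 23.0 to 38.8) lay between genes. In the long-enriched columns the order was the other way, 11 of 97 in galactose (11.3%, 5.80 to 19.4) and 16 of 71 in glucose (22.5%, 13.5 to 34.0), with overlapping intervals.

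IRT1, which crosses the promoter of the meiosis regulator IME1, had a cluster from 607202 to 605938 on the bottom strand of chromosome X. It had 33 standard reads in galactose and 12 in glucose and ended 2 nt before the annotated end. On the other strand of that gap a cluster had 9 standard reads in galactose and 12 in glucose. Upstream of ZRT1, a zinc transporter gene, long molecules of 1969 nt at the median had 6 standard reads in galactose and 1 in glucose and 46 long-enriched reads in galactose and 22 in glucose (a long-enriched ratio of 1.45, 0.858 to 2.54). Of 5 nucleotide-sensing genes 3 flanked a cluster, with 1 measured in both protocols and 0 called. Upstream of IMD2, an enzyme of guanine nucleotide synthesis, the cluster had 10 standard reads in galactose and 21 in glucose and 4 long-enriched reads in galactose and 12 in glucose. It ended 15 nt before the start codon, and IMD2 itself had 2 standard reads in galactose and 115 in glucose.

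Some clusters shared their start with molecules that went on to cover a gene. In 568 of the 713 no gene-covering molecule began in the cluster's 5' range. In 34 (4.77%) at least 50% of the molecules from that range covered a coding sequence, 20 of them between divergent genes and 14 upstream tandem. All 34 lay with a gene ahead on the same strand. Where a gene lay ahead on the same strand, the cluster's most used start was at or past that of the gene in 27 of 239 clusters between divergent genes and in 14 of 125 upstream tandem ones. Its most used end was at or past the gene's start in 79 and 39 of the same clusters.

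Next are start ranges from which some molecules covered the gene ahead, not only those of the 34 clusters. The share of molecules that lay between genes differed between the protocols, so it is given within each. Before VHS1, a protein kinase gene, 1314 of 1334 standard molecules lay between genes in galactose (98.5%) and 435 of 448 in glucose (97.1%). Their most used 3' end was 27 nt before the start codon. In the long-enriched columns the VHS1 shares were 18.8% in galactose (13.0 to 25.7) and 29.2% in glucose (18.6 to 41.8). Before CAN1, the arginine permease, the standard shares were 95.2% in galactose and 95.6% in glucose, and before HAP4 96.9% in galactose and 97.3% in glucose. The long-enriched shares were 42.9% in galactose and 45.8% in glucose before CAN1, and 11.5% in galactose and 19.4% in glucose before HAP4. For these 3 genes the intervals of the media overlap in both protocols.

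Before PEP4, the vacuolar protease A, the standard shares were 67.0% in galactose and 63.4% in glucose, and before ATP1 23.7% in galactose (21.0 to 26.5) and 31.2% in glucose (24.9 to 38.0). Their long-enriched shares were 1.60% in galactose and 3.80% in glucose before PEP4, and 2.72% in galactose and 4.41% in glucose before ATP1, and again the intervals overlap in both protocols. Before RCK2, another kinase gene, the standard shares were 93.4% in galactose and 94.2% in glucose, with overlapping intervals. The long-enriched RCK2 shares were 13.1% in galactose (9.83 to 17.0) and 30.3% in glucose (23.2 to 38.2), which do not overlap. Before GCN4 the intervals do not overlap in either protocol, with standard shares of 0.23% in galactose (0.18 to 0.289) and 0.567% in glucose (0.475 to 0.672). The long-enriched GCN4 shares were 0.0202% in galactose (0.00968 to 0.0371) and 0.0607% in glucose (0.0380 to 0.0919). RCK2, PEP4 and ATP1 were chosen after their values were seen. How many of all start ranges have intervals that do not overlap between media is not given here.

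**Figure D5:**
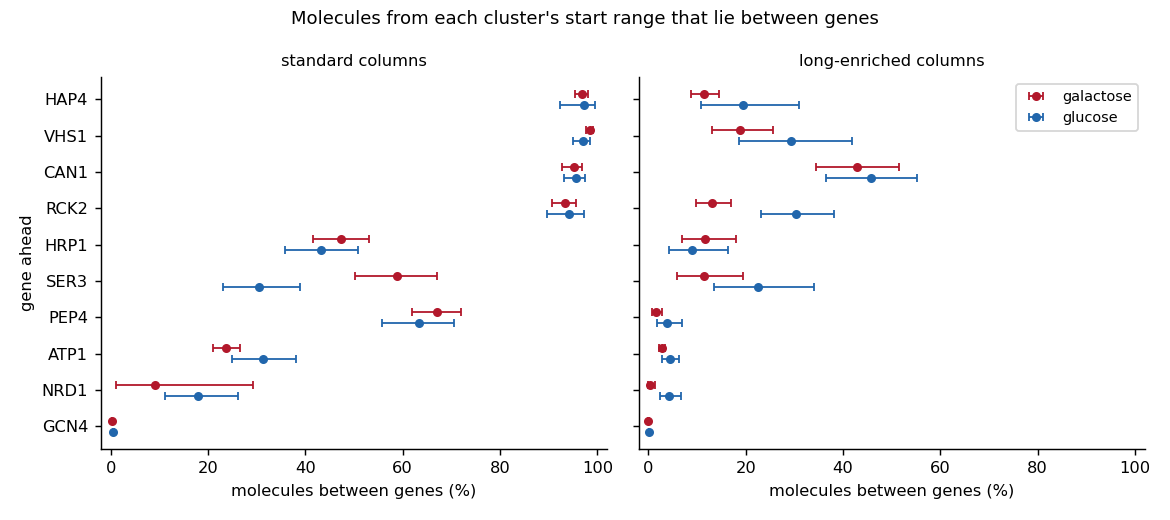
Share (%) of capped molecules from each cluster's 5' range that lie between genes, by medium, in the standard columns (left) and the long-enriched columns (right), with exact 95% binomial intervals; rows name the gene ahead. Before VHS1 the galactose share is 98.5% in the standard columns and 18.8% in the long-enriched ones, and before SER3 the media are in opposite order in the 2 protocols.

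Both attenuated genes on the list, NRD1 and HRP1, flanked a cluster, and the HRP1 one had enough reads in both protocols and was not called. NRD1 and HRP1 encode RNA-binding proteins of transcript termination and 3' end formation that limit their own mRNA. Before NRD1, on the bottom strand of chromosome XIV, short molecules from 174587 to 174347 had 2 standard reads in galactose and 20 in glucose, and 1 long-enriched read in galactose and 17 in glucose. Of standard molecules from that start range they were 2 of 22 in galactose (9.09%, 1.12 to 29.2) and 20 of 112 in glucose (17.9%, 11.3 to 26.2), with overlapping intervals. Of long-enriched ones they were 1 of 399 in galactose (0.251%, 0.00635 to 1.39) and 17 of 405 in glucose (4.20%, 2.46 to 6.64), which do not overlap. Molecules covering NRD1 had 29 standard reads in galactose and 17 in glucose and 420 long-enriched reads in galactose and 409 in glucose. Before HRP1 there were 145 standard reads in galactose and 76 in glucose, a ratio of 1.37 (1.03 to 1.84). Of standard molecules from the start range they were 47.2% in galactose (41.5 to 53.0) and 43.2% in glucose (35.8 to 50.8).

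The last stretch of both short RNAs is printed with the most used 3' end in capitals, together with the letters GTAA, GTAG (bound by Nrd1) and TCTT (bound by Nab3), which do not overlap here. The windows are chrXIV:174327-174467, bottom strand for NRD1 and chrXV:87688-87828, top strand for HRP1.
before NRD1: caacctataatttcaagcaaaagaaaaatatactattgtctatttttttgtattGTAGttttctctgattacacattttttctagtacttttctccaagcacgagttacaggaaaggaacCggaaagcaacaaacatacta
before HRP1: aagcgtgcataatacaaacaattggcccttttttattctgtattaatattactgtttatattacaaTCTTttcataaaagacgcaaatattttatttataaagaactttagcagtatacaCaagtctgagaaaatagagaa
The NRD1 stretch held 1 GTAG and the HRP1 stretch 1 TCTT. Such short motifs are common: 67.7% of the 713 clusters had GTAA or GTAG and 58.2% had TCTT in the 120 nt before their 3' end, searched on their own strand. Along whole clusters without SCR1, GTAA or GTAG occurred 8.15 times per kb on the cluster's strand and 8.23 times on the opposite strand, and TCTT 6.98 times on the cluster's strand and 7.69 on the opposite one. For GTAA or GTAG the cluster's strand had 9.03 and the opposite one 7.86 in divergent clusters, and 7.19 and 9.01 in upstream tandem ones.

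Non-capped reads of a cluster lay between genes and began in its 5' range, with or without a capped read at the same pair. Per 100 capped reads, downstream clusters had 193.5 non-capped reads, upstream tandem ones 52.6, those between divergent genes 6.07 and divergent ones 7.21 without SCR1 (2.51 with it), against 0.826 for molecules covering a coding sequence. Of the downstream and upstream tandem clusters, 192 had a gene behind with a molecule that covers it and so a measured 3' end. Of these, 63 ended within 20 nt of that gene's most used 3' end, 29 of 63 downstream and 34 of 129 upstream tandem. The 63 had a median span of 282 nt, against 407 nt for the other 650. By the member rule, molecules ending there must fit between the gene's stop codon and its 3' end, which limits their span. Per 100 capped reads the 63 had 302 non-capped reads, and the other clusters without SCR1 had 11.3, where the whole table had 12.7. Non-capped reads were absent from 532 of the 713 clusters, and they outnumbered capped reads in 62, of which 37 ended at a gene's 3' end. Whether the capped molecules in these clusters are pieces of the mRNA of the gene behind was not tested.

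The cluster behind PMP2 ended in this way, with 169 standard reads in galactose and 287 in glucose beside 986 non-capped reads in galactose and 1619 in glucose (chromosome V, 122331 to 122647, bottom strand). Its most used 3' end was the same base as that of PMP2, and PMP2 itself was 2.28-fold lower in galactose, near the 2.36-fold of the cluster. Behind SED1, a cell wall protein gene, there were 166 standard reads in galactose and 70 in glucose and 703 non-capped reads in galactose and 911 in glucose, again at the gene's own 3' end. Upstream of HAP4 there were 33 non-capped reads in galactose and 99 in glucose, and upstream of ADR1 5 in galactose and 0 in glucose. The downstream cluster between RRT15 and MAS1, with no molecule covering the gene behind to compare with, had 0 non-capped reads and 93 standard reads in galactose and 53 in glucose.

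Over clusters that did not share a gene's start, the cluster's standard log2 ratio can be set beside that of its neighbour. Pearson's r was 0.65 over 39 downstream clusters and the gene behind, 0.55 over 73 upstream tandem clusters and the gene ahead, 0.37 over 125 divergent clusters and the gene behind, and 0.22 over 101 clusters between divergent genes and the gene ahead. Spearman's rho was 0.52, 0.29, 0.38 and 0.11 in the same order. With the gene behind, r was 0.20 and rho 0.17 over 80 upstream tandem clusters, and r 0.17 and rho 0.15 over 127 clusters between divergent genes. The points share libraries and scaling, and some share a gene. Of downstream clusters whose gene behind had a measured 3' end, 29 of 63 ended there. These were not all left out of the 39, and whether they are pieces of that gene's mRNA was not tested. Since these are cultures measured in bulk, fewer cells making a molecule and fewer molecules per cell cannot be told apart.

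The other clusters named for abundance differed less between media. Before SRM1, the exchange factor of the nuclear transport GTPase, a cluster had 622 standard reads in galactose and 337 in glucose (1.33-fold, 1.16 to 1.52). Between RPS14A and SYP1 there were 446 standard reads in galactose and 334 in glucose (0.961, 0.832 to 1.11), and between YBR292C and VBA2 355 in galactose and 239 in glucose (1.07, 0.905 to 1.27). Behind ERO1, an oxidase of the endoplasmic reticulum, there were 246 standard reads in galactose and 168 in glucose (1.05, 0.863 to 1.29). The VHS1 cluster, with 1314 standard reads in galactose and 435 in glucose, was 2.17-fold higher in the standard columns (1.95 to 2.43) but had 30 long-enriched reads in galactose and 19 in glucose (1.10, 0.598 to 2.066) and was not called. Of the 713, 59 (8.27%) overlapped a long terminal repeat, 39 (5.47%) a replication origin, 1 a telomere and 0 a centromere.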

How the data were processed

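Full-length cDNA of capped, polyadenylated RNA was circularised, cut, and the junctions of both ends sequenced, per the labels' protocols. CASAVA, Novoalign 2.07.10 and build R64 are listed in the submitters' processing notes. The deposited values are read counts for each pair of 5' and 3' positions, with 1 column per kind of library, summed by the authors. Treatment of duplicate reads is not stated in the labels. Of the table's 6 count columns all were used, and 0 columns lacked a group.

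Positions were set against the R64 reference and its annotation. Galactose over glucose ratios were scaled by TMM over molecules covering 1 whole coding sequence (edgeR 4.0.16 in R 4.3.3), with exact conditional binomial 95% intervals; shares have exact binomial intervals, both for counting error only. Log2 ratios used 0.5 reads as pseudocount. Calls needed 20 reads per protocol and, in both, 2-fold with the interval excluding 1. With summed columns no edgeR or DESeq2 test could be run; DESeq2 1.42.0 gave size factors as an alternative. The call rule was run on simulated counts with known changes, whose outcome is not used as a result. Other steps used Python 3.11.15, numpy 2.4.6, pandas 2.3.3 and scipy 1.17.1.

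Clusters named were the 10 with most standard reads, the 8 highest and 8 lowest called, the 3 with most reads per position, those overlapping an annotated RNA, and those flanking fixed gene lists (galactose, hexose transport, nucleotide sensing, attenuated, known upstream RNA). The clusters before ATP1, RCK2, PEP4 and PLB3 fall outside this rule and were chosen after their values were seen. Members and lists were chosen with earlier results of these data known. Alternatives are in the closing section.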

Additional observations from a re-analysis of the deposited data

Results flagged for a closer look

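Most non-capped reads between genes lay at pairs of ends where no capped read was seen. There were 18330 such reads in the galactose column and 17303 in the glucose column, beside 1972 in galactose and 2430 in glucose at pairs with a capped read. The non-capped values of the 713 clusters above, 19644 reads in all, already include those of either kind that began in a cluster's 5' range. The reads at pairs without a capped read formed 1124 clusters. Of these reads 42.7% lay in upstream tandem and 34.7% in downstream positions, 12.1% between divergent genes and 10.4% in divergent positions. The 3 largest lay behind RPL8A (774 reads in galactose and 1272 in glucose), SED1 (530 in galactose and 671 in glucose) and PMP2 (298 in galactose and 788 in glucose).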

How the results depend on the processing

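No paired analysis was possible because the deposited columns sum the libraries, and for the same reason no replicate could be left out. Counting only pairs with at least 2 reads gave 3465 clusters and 449 with at least 20 reads, and testing overlap on the same strand only gave 16925 and 1372. Under pairs of at least 2 reads, same-strand overlap, and leaving out other annotated features, the between-gene share was 0.596%, 1.19% and 0.573% in standard galactose, 0.443%, 0.969% and 0.395% in standard glucose, 0.442%, 1.04% and 0.242% in long-enriched galactose, and 0.466%, 1.14% and 0.243% in long-enriched glucose. Counting reads in place of clusters, the positions held 15.4% (upstream tandem), 24.8% (between divergent genes), 55.6% (divergent, with SCR1) and 4.16% (downstream), and over all clusters 27.5%, 32.2%, 25.4% and 14.97%.

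Clusters higher in galactose numbered 23 with no minimum of reads, 110 in the standard columns alone and 21 in the long-enriched ones alone. Clusters lower in galactose numbered 29, 85 and 16 in the same settings, 1 under total-read scaling, 2 with a minimum of 50 reads and 4 with pairs of at least 2 reads. By the call rule itself, each of the 18 calls is also a call in each protocol alone. Starts shared with a gene numbered 85 at 10% and 10 at 90%. The median non-capped to capped ratio per 100 reads was 0 and the summed one 19.0. Of the 18 called log2 ratios none changed sign under the 4 settings tried for them. In the long-enriched setting none could, because a call needs the same direction in both protocols. Under total reads 7 lower calls were lost, since that scaling raises every log2 ratio by the amounts given above. Other settings kept the direction and stayed within 1.5 times of the counts or the interval of the shares. The depth leaves 566 of the 713 clusters without 20 reads in each protocol.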
